A study of Mus musculus with 53 samples.

Results

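The genes described here are 10 members of the fibroblast growth factor (FGF) pathway in the mouse: the ligands Fgf4, Fgf8, Fgf15 and Fgf17, the receptors Fgfr1, Fgfr2, Fgfr3 and Fgfr4, and the feedback inhibitors Spry2 and Spry4. They were taken by name, and every array probe set annotated with exactly 1 gene symbol equal to a member was used. That gave 27 of the 34945 probe sets with 1 symbol, and 10 of the 18193 genes these stand for. All 10 passed the filter on low values (a signal above the array's median in at least 2 arrays), which 13807 genes passed. Where a gene has several probe sets, the one with the highest mean over all arrays is given, and the other probe sets are named where they differ. Levels are linear signal units of a single probe set, so they compare samples and not genes.

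Expression profiles of embryonic stem (ES) cells lacking Ezh2 or Eed, both parts of a Polycomb complex that represses developmental genes, were set against wild-type ES cells before and during differentiation. Differentiation was started by removing LIF, a cytokine that keeps mouse ES cells undifferentiated. Ezh2-null ES cells were sampled undifferentiated (day 0; 6 arrays), on day 2 (4 arrays), on day 6 (5 arrays) and on day 8 (2 arrays). Cells labelled Eed-null were measured at day 0 (5), day 2 (2) and day 6 (2). Wild-type ES cells were measured at day 0 (7; lines J1, CJ7 and E14tg1), day 2 (4; J1 and CJ7), day 6 (5; J1 and CJ7) and day 8 (2; CJ7). The other groups were mesoendodermal cells in which the T (brachyury) promoter drives GFP (T-GFP cells, 2 arrays), neuronal progenitors marked by Sox1-GFP (3), neuronal stem cells derived from such progenitors (2) and mouse embryonic fibroblasts (MEF, 2). That makes 53 arrays in 15 groups. Neither mutant has a line in its labels, and so genotype and line cannot be told apart. Wild-type and mutant cells were grown on feeder fibroblasts that were depleted at harvest. What was repeated between arrays that the labels call biological replicates is not stated, and p-values cover only the spread between these samples. Cultures were measured in bulk, in which fewer cells of a type and less RNA per cell cannot be told apart.

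FGF ligands bind receptor tyrosine kinases of the FGFR family together with heparan sulfate, and the activated receptors signal largely through the RAS and ERK kinases. Sprouty proteins are induced by this signal and damp it, so their transcripts are commonly used as a readout of pathway activity. In the early mouse embryo and in ES cells, FGF4 made by the pluripotent cells drives ERK signalling that is needed to leave the undifferentiated state. FGF8 and FGF17 belong to the same ligand subfamily, and FGF8 is made in the primitive streak. FGF15, the mouse counterpart of human FGF19, is an endocrine-type ligand that is also expressed in the developing neural tube.

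The stretches upstream of 3 members are shown because CpG-rich stretches at transcription start sites are where Polycomb complexes bind in ES cells, and because these 3 members include CpG-rich and CpG-poor windows. The RefSeq table (GRCm38.p6) held entries for 5 of the 10 genes: Fgf4, Fgfr2, Fgfr3, Fgfr4 and Spry2. Each sequence is the 250 bases before the annotated start, 5′ to 3′ on the gene's strand, with every CG pair in capitals.
Fgf4, chr7:144861136-144861385, plus strand: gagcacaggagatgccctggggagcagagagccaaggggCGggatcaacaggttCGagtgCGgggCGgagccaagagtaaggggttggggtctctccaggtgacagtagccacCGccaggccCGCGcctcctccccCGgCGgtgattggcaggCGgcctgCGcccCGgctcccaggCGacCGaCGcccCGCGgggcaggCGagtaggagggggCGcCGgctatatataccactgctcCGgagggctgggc
Spry2, chr14:105896820-105897069, minus strand: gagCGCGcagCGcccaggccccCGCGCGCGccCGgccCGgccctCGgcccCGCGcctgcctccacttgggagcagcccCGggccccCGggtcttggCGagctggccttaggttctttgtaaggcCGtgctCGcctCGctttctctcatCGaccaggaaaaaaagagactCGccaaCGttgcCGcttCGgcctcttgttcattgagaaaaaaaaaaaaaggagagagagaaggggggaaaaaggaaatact
Fgfr2, chr7:130266809-130267058, minus strand: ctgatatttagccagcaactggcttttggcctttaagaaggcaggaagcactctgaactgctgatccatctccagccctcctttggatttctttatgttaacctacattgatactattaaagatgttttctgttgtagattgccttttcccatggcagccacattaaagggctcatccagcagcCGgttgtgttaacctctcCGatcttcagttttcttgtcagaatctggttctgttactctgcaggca
Fgf4 has 21 CpG in this window, more than 83.7% of 32851 promoters of the same length. Spry2 has 23, more than 86.7% of them. Fgfr2 has 2, more than 18.8%, and the median promoter has 6. The windows of Fgfr3 have 19 and 24 CpG at its 2 annotated starts, and that of Fgfr4 has 15. The letters GGGCGG, searched on both strands, were present upstream of Fgf4, Fgfr3 and Fgfr4 and are present in 32.7% of all promoters. The letters CCGGAA were present in the window of Fgfr4 only, among these 5 genes, against 12.0% of all promoters. The letters TCACACC were in none of the 5, against 3.3% of all promoters. These are matches of letters in a fixed window and say nothing about occupancy. Fgf4 and Fgf15 are neighbours on chromosome 7, with Fgf3 on the other side of Fgf4.

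Array medians lay close together, from 50.5 signal units upward over a range of 0.2035 on the log2 scale, and precision is limited by the few arrays in each group. Ezh2 signal was 214 ± 31.6 in Ezh2-null cells at day 0, against 1451 ± 247 in wild-type cells (SD, n = 6 and 7), which checks that label. The Eed probe set was not lower in the cells labelled Eed-null, and it is no check of that label, since the sources used here do not give the altered part of Eed. Arrays of days 2 and 6 fell into a first and a second set by the ratios between probe sets of the same gene. The second set holds replicates 3 and 4 of day 2 and 3 to 5 of day 6 for both wild-type and Ezh2-null cells, together with the Eed-null arrays of both days. At day 2 the first set of wild-type arrays is J1 and the second is CJ7, so set and line cannot be told apart there. A score of the same ratios at day 0 was 15.86 to 21.96 in Eed-null arrays and -11.42 to -4.64 in wild-type and Ezh2-null arrays. Array set and Eed-null genotype therefore cannot be told apart at day 0, nor in Eed-null changes from day 0. Values within each set are given where they matter. Mixl1 and Eomes, genes of the primitive streak, averaged 1925 and 1216 in T-GFP cells. Sox1 and Pax6 averaged 762 and 881 in Sox1-GFP cells, and Col1a1 averaged 6509 in MEF.

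In wild-type cells Fgf4, Fgf8 and Spry4 changed by day 2 and were still changed at day 6. At day 6 both mutants differed from wild type in Fgf4 and Fgf8, and Eed-null cells also in Fgfr1. A gene was called when limma's adjusted p was under 0.05 and the change was at least 2-fold on the log2(signal + 32) scale. Fold changes below are log2 values ± SE on this scale, which understates changes of dim genes, and adjusted p-values are limma's with Benjamini-Hochberg adjustment over 13807 genes. In wild-type cells 3 of the 10 genes were called at day 2 against day 0, beside 3.43% of all genes. At day 6 there were 4 (10.3% of all genes) and at day 8 there were 5 (11.4%). Between Ezh2-null and wild-type cells 0 of 10 were called at day 0 (0.0507% of all genes) and at day 2 (0.123%), 2 at day 6 (3.03%) and 1 at day 8 (1.06%). At an adjusted p under 0.05 with no minimum fold, Fgf15 alone passed at day 0, beside 0.797% of all genes. Between Eed-null and wild-type cells 0 of 10 were called at day 0 (2.26%), 1 at day 2 (1.04%) and 3 at day 6 (3.1%). With no minimum fold, 5 of the 10 passed the adjusted p at day 0, beside 41.7% of all genes. At that day the Eed-null arrays also stand apart by their probe set ratios. The median change of the 10 genes at day 6 was -0.43 in Ezh2-null and -0.36 in Eed-null cells against wild type, while the median of all genes was 0.00 in both comparisons. Within the mutants, 4 of the 10 genes were called at day 6 against day 0 in Ezh2-null cells (16.3% of all genes) and 4 in Eed-null cells (10.1%). The change over these days differed from the wild-type change in 3 genes for Ezh2-null (3.09%) and 3 for Eed-null cells (4.69%). The mutants were set against the same wild-type arrays, so these counts are not independent of each other.

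**Figure D1:**
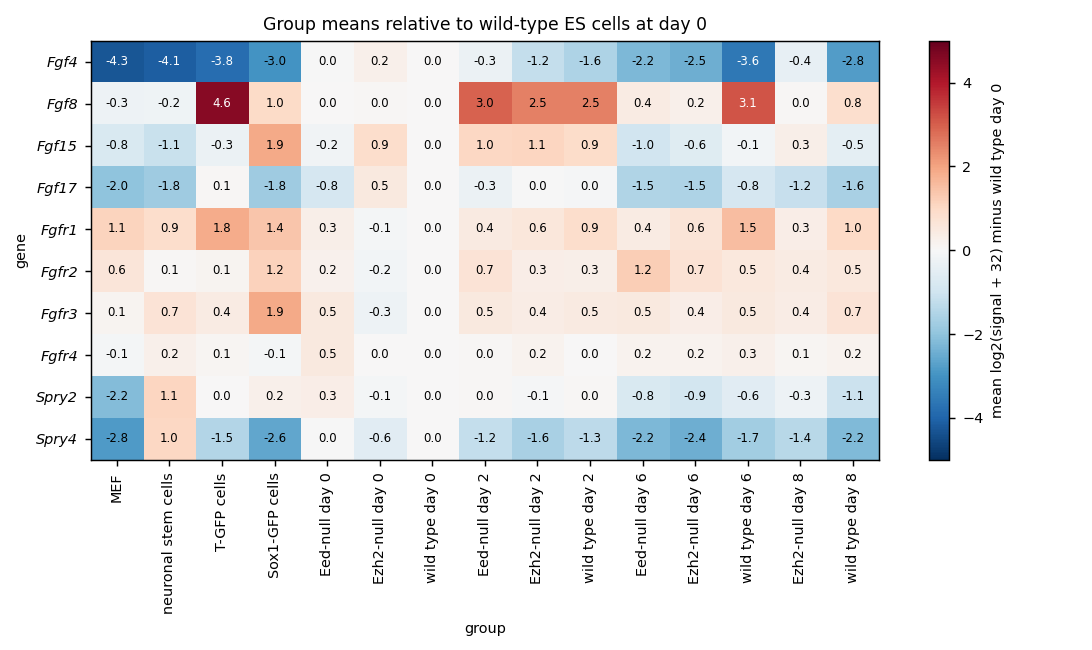
Mean log2(signal + 32) of each group minus that of wild-type ES cells at day 0, for the 10 genes (rows) and the 15 groups (columns). Fgf4 is below the wild-type day 0 mean in every differentiated cell type, Fgf8 is highest above it in T-GFP cells and in wild-type cells at day 6, and Fgfr4 spans 0.61 in all.

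Among the differentiated cell types, T-GFP cells differed from wild-type ES cells at day 0 in 4 of the 10 genes (9.5% of all genes called). Sox1-GFP cells differed in 7 (13.4%), and MEF in 5 (24.1%). T-GFP against Sox1-GFP cells gave 6 (10.3%), and neuronal stem cells against Sox1-GFP cells gave 6 (14.3%). The count of comparisons in which a gene was called, of 19, ran from 14 for Fgf4, 10 for Spry4 and 9 for Fgf8 down to 0 for Fgfr4.

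Fgf4 is the FGF ligand made by undifferentiated ES cells. Its signal in the 7 wild-type arrays at day 0 had a lowest value of 943.6, a median of 1144 and a highest of 1422.9. It was 466.7, 358.8, 322.5 and 315.2 at day 2, then 78.8, 61.2, 66.9, 69.9 and 56.1 at day 6, and 117.6 and 150.0 at day 8. No 2 of these days overlap, and the 2 arrays of day 8 lie above all 5 of day 6. Fgf4 fell: its change against day 0 was -1.56 ± 0.18 at day 2 (adjusted p = 7.4e-09), -3.56 ± 0.17 at day 6 (adjusted p = 6.2e-21) and -2.81 ± 0.23 at day 8 (adjusted p = 5e-13). The mean signal at day 6 was 17.1-fold lower than at day 0. In the differentiated cell types Fgf4 signal was 47.6 and 54.9 in T-GFP cells, 37.8 and 32.8 in neuronal stem cells and 18.9 and 37.8 in MEF, and 137.9, 143.5 and 76.6 in Sox1-GFP cells.

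In both mutants Fgf4 fell between day 0 and day 6, by 2.70 on the log2 scale in Ezh2-null and by 2.22 in Eed-null cells, and at day 6 it was above wild type. At day 0 it was not called: the lowest, median and highest values were 1082.1, 1310.0 and 1710.9 in Ezh2-null cells, the 5 Eed-null arrays lay between 896.4 and 1320.7, and both ranges overlap wild type. At day 2 the Eed-null arrays read 895.4 and 958.5, against 466.7, 358.8, 322.5 and 315.2 in wild type, with no overlap. The difference was 1.28 ± 0.25 (adjusted p = 0.001), and without Eed-null replicate 2 it was 1.24, with an adjusted p of 0.05 that misses the threshold. The Ezh2-null arrays read 396.2, 334.9, 526.3 and 722.7 and overlapped wild type at day 2 (0.37 ± 0.20, adjusted p = 0.65). Within the array sets that difference was -0.16 in the first and 0.89 in the second.

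At day 6 Fgf4 read 278.6, 230.7, 81.8, 172.7 and 189.1 in Ezh2-null cells and 232.8 and 196.3 in Eed-null cells, against 78.8, 61.2, 66.9, 69.9 and 56.1 in wild-type cells. Every mutant array lay above every wild-type array, Ezh2-null replicate 3 by the least. The differences were 1.10 ± 0.18 for Ezh2-null (adjusted p = 9.4e-06, n = 5 and 5, limma) and 1.32 ± 0.24 for Eed-null cells (adjusted p = 0.0001, n = 2 and 5, limma). For Ezh2-null cells the difference was 1.49 in the first array set and 0.85, under 2-fold, in the second, and without Ezh2-null replicate 1 it was 0.96, also under 2-fold. At day 8 the gap was wider: 839.3 and 829.5 in Ezh2-null cells, against 117.6 and 150.0 in wild-type cells, a 6.24-fold ratio of means and a difference of 2.39 ± 0.29 (adjusted p = 5.9e-07). The Ezh2-null arrays of day 8 lie above all 5 Ezh2-null arrays of day 6, and above all 4 of day 2. The summed signal of the ES cell marker list followed Fgf4 only in part. It was 21496.2 to 22450.7 in Ezh2-null and 8991.4 to 10322.0 in wild-type cells at day 8. At day 6 it was 4683.5 to 17141.6 in Ezh2-null and 14639.2 to 14985.7 in Eed-null cells, against 6012.0 to 7369.8 in wild-type cells. The Ezh2-null range thus overlapped wild type. At day 2 the sum was 22002.3 to 24132.4 in Ezh2-null, 20492.2 to 20837.5 in Eed-null and 17145.0 to 19030.2 in wild-type cells. Fgf4 at that day was higher in Eed-null than in Ezh2-null cells. The part of ES-like cells in the Fgf4 difference was not tested.

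Not every Fgf4 probe set showed the day 6 difference. The second brightest gave 0.98 in Ezh2-null and 1.28 in Eed-null cells against wild type. A dimmer set gave 0.19 and 0.58. The dimmest of the 4 had a mean of 17.2 and lay above the array median in 0 of 53 arrays, and an average counts it equally. Averaged over all probe sets the differences at day 6 were 0.59 in Ezh2-null and 0.82 in Eed-null cells, and neither was called. The same held with a pseudocount 4 times higher, at 0.68 and 0.82. The wild-type fall at day 2 was -0.99, under 2-fold, when all probe sets were averaged.

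**Figure D2:**
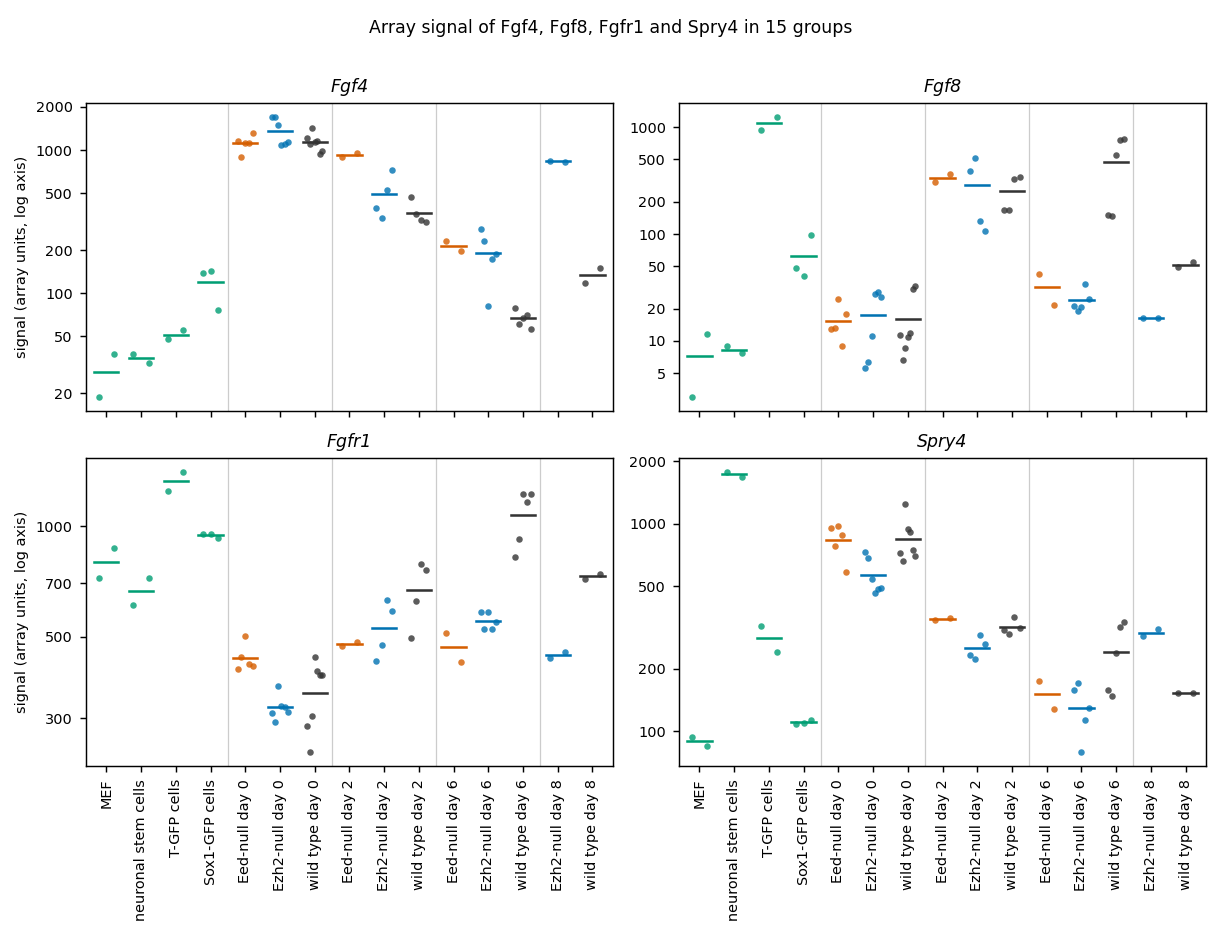
Signal of Fgf4, Fgf8, Fgfr1 and Spry4 in each of 53 arrays (points; log axis, signal units) by group, with a line at each group's mean. Within each day the mutants stand left of wild type: Fgf4 of the mutants lies above wild type at day 6, Fgf8 and Fgfr1 lie below it, and Spry4 is highest in neuronal stem cells.

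Fgf8, a ligand of the primitive streak, was the member with the largest rise in wild-type cells at days 2 and 6 and the largest difference in both mutants at day 6. At day 0 all arrays of the 3 genotypes read 32.6 or less, below the lowest array median of 50.5, so ratios against day 0 rest on dim values. In wild-type cells Fgf8 read 168.0, 169.1, 325.7 and 342.0 at day 2, then 151.8, 148.7, 554.4, 752.2 and 780.4 at day 6, and 49.3 and 54.3 at day 8. All arrays of day 2 and day 6 lay above all of day 0, with a rise of 2.52 ± 0.31 at day 2 (adjusted p = 3.1e-08) and of 3.14 ± 0.29 at day 6 (adjusted p = 3.3e-12). At day 8 the change was 0.83 ± 0.40 and was not called (adjusted p = 0.092). The 2 low arrays of day 6, as at day 2, are those of the first array set. Against the same day 0 arrays, the change at day 6 was 1.95 in that set and 3.93 in the second.

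At day 6 Fgf8 was near the day 0 level in both mutants. It read 21.4, 18.9, 20.8, 34.3 and 24.8 in Ezh2-null cells and 42.6 and 21.6 in Eed-null cells, against 151.8, 148.7, 554.4, 752.2 and 780.4 in wild-type cells. The highest mutant array lay below the lowest wild-type array. The difference from wild type was -2.90 ± 0.32 in Ezh2-null (adjusted p = 2.2e-09) and -2.72 ± 0.42 in Eed-null cells (adjusted p = 6.3e-06). All mutant arrays lie below the lowest array median, so no ratio of signals is given. Both differences held within array sets, at -1.81 in the first and -3.63 in the second for Ezh2-null cells and at -3.51 in the second for Eed-null cells. Within each mutant, day 6 against day 0 gave 0.20 ± 0.30 for Ezh2-null (adjusted p = 0.57) and 0.42 ± 0.42 for Eed-null cells (adjusted p = 0.44). The summed streak markers moved the same way at day 6, at 210.1 to 299.1 in Ezh2-null and 204.3 to 214.6 in Eed-null cells against 1584.8 to 5779.0 in wild-type cells. The part of streak-like cells in the Fgf8 difference was not tested.

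At day 2 Fgf8 lay above all day 0 arrays in each genotype. Eed-null cells read 305.6 and 363.4, and Ezh2-null cells read 392.2, 520.4, 132.6 and 107.1, against 168.0, 169.1, 325.7 and 342.0 in wild-type cells. The Ezh2-null difference averaged 0.00 ± 0.35 (adjusted p = 1.0), and the array sets went opposite ways. In the first set Ezh2-null cells were higher by 1.27 (adjusted p = 0.0049), and in the second they were lower, with a difference of -1.27 (adjusted p = 0.0021). The wild-type line differs between these sets, and no label names the Ezh2-null line, so the set and the lines cannot be told apart. The Eed-null difference was 0.43 ± 0.43 (adjusted p = 0.63).

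**Figure D3:**
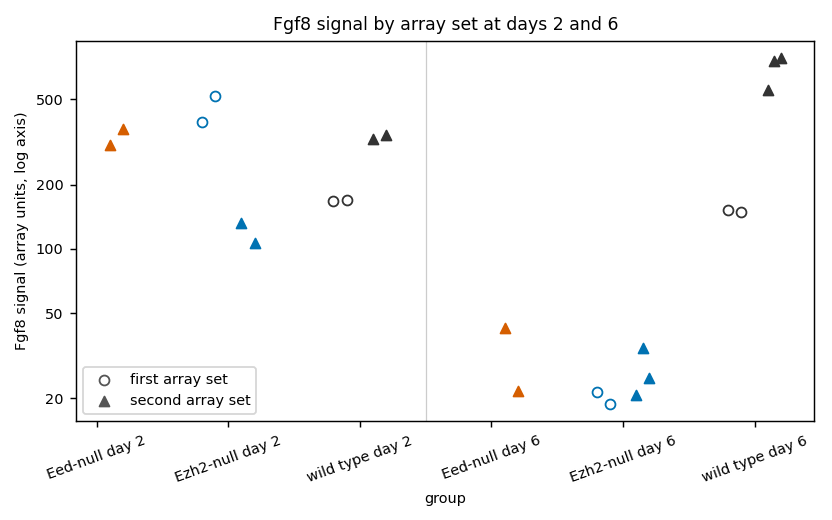
Fgf8 signal (log axis, signal units) at days 2 and 6 in Eed-null, Ezh2-null and wild-type cells, with arrays of the first set as open circles and of the second set as triangles. At day 2 Ezh2-null circles lie above and triangles below their wild-type counterparts, while at day 6 all mutant arrays lie below all wild-type arrays.

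Of all groups, T-GFP cells had the highest Fgf8, at 933.0 and 1258.3, and lay above the dim wild-type day 0 arrays by 4.57 ± 0.40 (adjusted p = 1.8e-12). Sox1-GFP cells read 48.6, 40.5 and 98.2, so T-GFP cells were higher by 3.61 ± 0.46 (adjusted p = 2.2e-08). Neuronal stem cells read 8.9 and 7.7 and MEF 3.0 and 11.5. In the order of group means T-GFP cells stood apart from the next group without overlap, but wild type at day 6, Eed-null, Ezh2-null and wild type at day 2 overlapped each with the next.

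Fgf15 was highest in neuronal progenitors. It read 485.2, 450.0 and 807.2 in Sox1-GFP cells, against a lowest of 97.9, a median of 128.8 and a highest of 157.9 in wild-type ES cells at day 0, a rise of 1.91 ± 0.19 (adjusted p = 2e-11). T-GFP cells read 130.8 and 68.6, with a difference from Sox1-GFP cells of -2.21 ± 0.25. Neuronal stem cells read 39.8 and 40.4, below the lowest array median of 50.5, a difference from Sox1-GFP cells of -3.04 ± 0.25 (adjusted p = 1.8e-13).

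Fgf15 also set Ezh2-null apart from wild-type ES cells at day 0, though under the minimum fold. The Ezh2-null arrays had a lowest of 214.2, a median of 244.7 and a highest of 355.8, and all lay above the wild-type arrays. The difference of 0.86 ± 0.15 passed the adjusted p (0.0016) but not the minimum fold. Over 27 alternatives it ran from 0.59 to 1.10, with limma's adjusted p as high as 0.3. The highest value was that against wild-type replicates 1 to 3 alone, a choice added after seeing the data. Eed-null cells read 82.3, 114.7, 111.6, 98.3 and 136.0 and overlapped wild type. At day 2 wild-type Fgf15 read 392.1, 322.2, 211.4 and 178.2, above all day 0 arrays, with a change of 0.91 ± 0.17 that was under 2-fold. That change was 1.3 in the first array set, which is J1, and 0.52 in the second, which is CJ7. It stayed uncalled under 20 of 28 alternatives. At day 6 Fgf15 read 106.9, 72.7, 33.1, 92.3 and 62.7 in Ezh2-null, 38.2 and 59.9 in Eed-null and 143.9, 103.2, 88.6, 103.0 and 126.2 in wild-type cells. Its change from day 0 to day 6 was -1.49 ± 0.17 in Ezh2-null and -0.13 in wild-type cells. The difference between these changes, tested as an interaction, was -1.35 ± 0.23 (adjusted p = 5.4e-05). With a pseudocount 4 times higher it was -0.86 and the Ezh2-null change was -0.94, both under 2-fold.

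Fgf17, close in sequence to Fgf8, lay within the ES cell range in T-GFP cells and below it in the other differentiated cell types. It read 215.3 and 231.5 in T-GFP cells, 37.8, 40.9 and 41.3 in Sox1-GFP cells, 38.5 and 38.2 in neuronal stem cells and 30.1 and 26.1 in MEF, against 151.3 to 280.9 in wild-type ES cells at day 0. The readings of Sox1-GFP cells, neuronal stem cells and MEF lie below the lowest array median of 50.5. The T-GFP change was 0.06 and was not called, and Sox1-GFP cells were below it, with a change of -1.76 ± 0.18 (adjusted p = 1.8e-11). In the wild-type course Fgf17 read 62.2, 72.9, 150.6, 124.1 and 140.1 at day 6, a change of -0.83 ± 0.15 under 2-fold. The lowest readings, 62.2 and 72.9, are those of the first array set, where the change was -1.3, against -0.52 in the second. At day 8 Fgf17 read 41.2 and 54.5 and was lower than at day 0 by 1.62 ± 0.20 (adjusted p = 1.8e-08). With a pseudocount 4 times higher that change was -0.96, under 2-fold. In Ezh2-null cells it read 246.9 to 354.0 at day 0 and 39.8, 42.6, 48.3, 68.5 and 64.8 at day 6, a change of -2.03 ± 0.15 (adjusted p = 5.9e-15). The difference from the wild-type change was -1.20 ± 0.22 (adjusted p = 9.4e-05, interaction). That call was lost with a pseudocount 4 times higher (-0.75) and with probe sets averaged (-0.93). It was also lost with the first array set alone at day 6 (-0.93) and with wild-type replicates 4 to 7 alone at day 0 (-0.99). Eed-null cells read 82.8, 72.8, 128.2, 111.1 and 131.4 at day 0, all below all 7 wild-type arrays, with a difference of -0.85 ± 0.15 (adjusted p = 1.3e-05, under the minimum fold). Replicate 5, the Eed-null array with the least fibroblast marker signal (434.1), read 131.4. The parts of feeder RNA and array set in this difference were not tested.

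**Figure D4:**
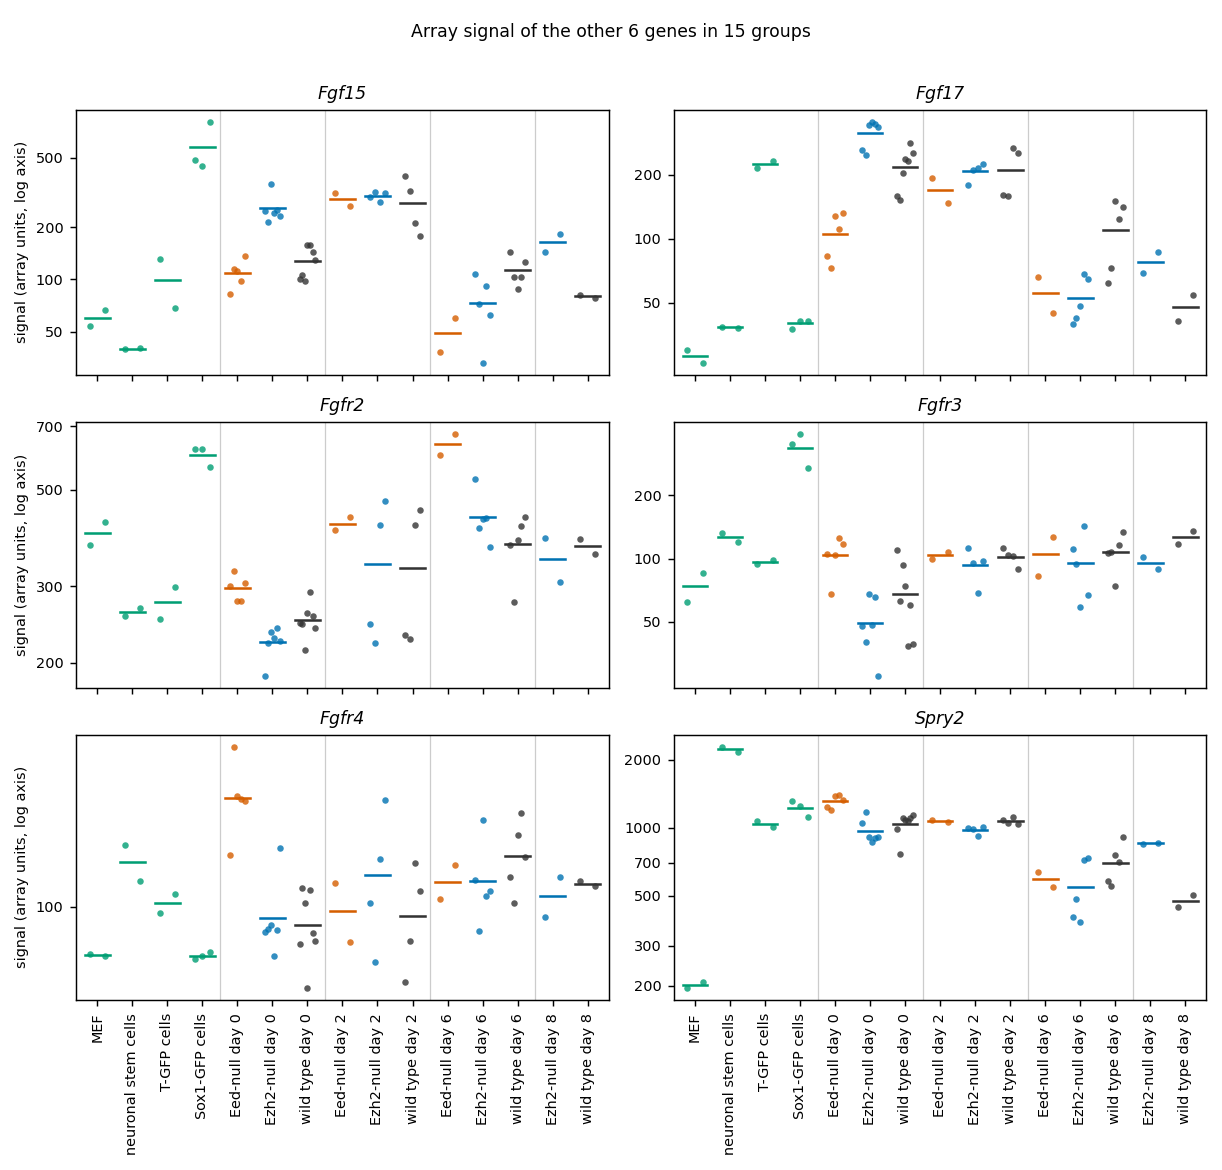
Signal of Fgf15, Fgf17, Fgfr2, Fgfr3, Fgfr4 and Spry2 in each of 53 arrays (points; log axis, signal units) by group, with a line at each group's mean. Fgf15 and Fgfr3 are highest in Sox1-GFP cells, Spry2 is highest in neuronal stem cells and lowest in MEF, and Fgfr4 stays between 75.5 and 173.7.

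Of the receptors, Fgfr1 was the one called during wild-type differentiation, where it rose, and both mutants lay below wild type at day 6. In wild-type cells Fgfr1 had a lowest of 242.7, a median of 393.6 and a highest of 441.4 at day 0. It read 495.9, 627.4, 791.4 and 759.5 at day 2, then 827.2, 925.5, 1225.4, 1165.0 and 1221.4 at day 6, and 717.3 and 743.2 at day 8. Each later day lay above all of day 0: the change was 0.87 ± 0.12 at day 2 (under 2-fold), 1.53 ± 0.11 at day 6 (adjusted p = 4e-15) and 1.01 ± 0.16 at day 8 (adjusted p = 9.5e-07). The call at day 8 was lost under 11 of 22 alternatives. At day 0 wild-type replicates 1 to 3 read 242.7 to 303.8 and replicates 4 to 7 read 393.6 to 441.4. Their summed fibroblast markers also differed, at 333.6 to 406.4 and 982.6 to 1765.3, and the part of feeder RNA in Fgfr1 at day 0 was not tested.

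At day 6 Fgfr1 read 584.6, 525.4, 583.9, 525.2 and 549.2 in Ezh2-null cells and 510.6 and 427.0 in Eed-null cells, against 827.2, 925.5, 1225.4, 1165.0 and 1221.4 in wild-type cells. No mutant array reached the lowest wild-type array. The difference was -0.90 ± 0.12 for Ezh2-null cells (adjusted p = 2.5e-07), under the minimum fold, and -1.13 ± 0.16 for Eed-null cells (adjusted p = 1.7e-06), which was called. The Eed-null difference was not called with probe sets averaged (-0.71) or with a pseudocount 4 times higher (-1.0). With a block for replicate number it was -0.86 and was not called. That block sets Eed-null arrays of the second set against wild-type arrays of the first. Replicate numbers were not taken as pairs there, with correlations of -0.17 to 0.02. Eed-null Fgfr1 changed by 0.09 between day 0 and day 6, and the difference from the wild-type change was -1.44 ± 0.20 (adjusted p = 1.7e-06). For Ezh2-null cells this difference of changes was -0.80 ± 0.16 (adjusted p = 0.00049), under the minimum fold. A second probe set gave -1.03 in Ezh2-null and -0.99 in Eed-null cells, but the dimmest gave -0.10 and 0.00, so the probe sets of Fgfr1 disagree on the mutants. T-GFP cells had the highest Fgfr1 of all groups, at 1250.6 and 1406.4 (1.85 ± 0.16 against wild type at day 0).

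Fgfr3, a receptor expressed in the neural tube, was highest in Sox1-GFP cells. It read 350.7, 390.3 and 269.1 in Sox1-GFP cells, against 38.5 to 109.4 in wild-type ES cells at day 0 (1.91 ± 0.18, adjusted p = 5.5e-12). Neuronal stem cells read 132.5 and 119.7, a difference from Sox1-GFP cells of -1.21 ± 0.24 that was -0.86, under 2-fold, with a pseudocount 4 times higher, and T-GFP cells read 93.9 and 98.9. The second, dimmer Fgfr3 probe set was also highest in Sox1-GFP cells, at 88.9 to 96.1. Fgfr2 showed its highest values among the sorted and derived cells in Sox1-GFP cells: 621.0, 621.2 and 563.8 there, 256.4 and 267.2 in neuronal stem cells and 252.9 and 298.6 in T-GFP cells. Against wild-type ES cells at day 0, with 214.2 to 290.6, Sox1-GFP cells were higher by 1.17 ± 0.16 (adjusted p = 3.2e-08). That call was lost with a pseudocount 4 times higher (0.95), with quantile normalisation (0.97) and with probe sets averaged (0.74). The dimmest Fgfr2 probe set in that average had a mean of 21.6 and lay above the array median in 0 of 53 arrays.

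Fgfr2 was also high in Eed-null cells at day 6, at 602.5 and 671.3, against 374.0, 276.7, 383.1, 413.5 and 433.9 in wild type. The 2 groups did not overlap, but the difference of 0.72 ± 0.19 (adjusted p = 0.0066) was under 2-fold, while the second Fgfr2 probe set gave 1.20. Both Eed-null arrays are of the second array set, in which wild type read 383.1, 413.5 and 433.9. Over 21 alternatives the difference ran from 0.55 to 0.92. The Eed-null change from day 0 to day 6 was 1.02 and was called, and it stayed called under 14 of 19 alternatives. At day 2 Fgfr2 moved with the array set: Ezh2-null arrays read 245.1 and 222.2 in the first set and 415.1 and 471.2 in the second, against 231.7 and 226.4 and then 414.3 and 448.9 in wild type. Fgfr4 was called in none of the 19 comparisons under limma's adjusted p and the 2-fold rule. With no minimum fold its difference at day 0 passed in Eed-null cells, at 119.4, 173.7, 146.7, 144.9 and 144.0, against 75.5 to 106.6 in wild type (0.50 ± 0.09, adjusted p = 2.6e-05). The summed fibroblast markers of Eed-null replicates 1 to 4 at day 0 were 3790.5 to 7346.5 and that of replicate 5, which read 144.0 for Fgfr4, was 434.1. The parts of feeder RNA and array set in the Fgfr4 difference were not tested.

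Both Sprouty genes were highest in neuronal stem cells and lowest in MEF. Spry4 read 1774.9 and 1681.3 in neuronal stem cells, against 108.7, 109.5 and 114.0 in Sox1-GFP cells, a 15.6-fold ratio (3.62 ± 0.25, adjusted p = 2.5e-16). The other 3 Spry4 probe sets gave 4.77, 2.03 and 2.21. Spry2 read 2279.4 and 2165.5 in neuronal stem cells, against 1117.1 to 1310.0 in Sox1-GFP cells, which do not overlap but differed by less than 2-fold (0.84 ± 0.18, adjusted p = 0.00018). Neuronal stem cells held the highest mean of both genes among the 15 groups, apart from every other group. MEF held the lowest of both, at 195.6 and 208.5 for Spry2 and 94.4 and 85.1 for Spry4. Against wild-type ES cells at day 0 that was a change of -2.18 ± 0.16 for Spry2 (adjusted p = 9.2e-16) and of -2.82 ± 0.22 for Spry4 (adjusted p = 4.2e-15).

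In wild-type cells Spry4 fell from day 0 to each later day. It had a lowest of 663.9, a median of 743.6 and a highest of 1249.8 at day 0, read 307.7, 294.9, 353.9 and 313.4 at day 2, then 158.8, 147.3, 238.9, 318.2 and 337.6 at day 6, and 152.4 and 152.9 at day 8. The change against day 0 was -1.30 ± 0.17 at day 2 (adjusted p = 7.2e-08), -1.72 ± 0.16 at day 6 (adjusted p = 2e-12) and -2.22 ± 0.22 at day 8 (adjusted p = 3.4e-11). In the first array set it was -1.37 at day 2 and -2.22 at day 6, and in the second -1.24 and -1.4. The CJ7 arrays read 353.9 and 313.4 at day 2 and 318.2 and 337.6 at day 6, so a further fall between these days was not seen in CJ7. Both mutants shared this fall: at day 6 against day 0 it was -1.89 ± 0.16 in Ezh2-null and -2.23 ± 0.23 in Eed-null cells. At day 6 Spry4 read 157.4, 171.6, 79.5, 112.9 and 129.6 in Ezh2-null and 174.8 and 128.7 in Eed-null cells, which overlap wild type, and the Ezh2-null difference was -0.71 ± 0.17 (adjusted p = 0.0013, under the minimum fold). Within array sets it was 0.09 in the first and -1.25 in the second. At day 8 Spry4 read 286.3 and 311.8 in Ezh2-null cells, against 152.4 and 152.9 in wild type, without overlap but not called (0.84 ± 0.27, adjusted p = 0.091).

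Spry2 was called at a later day. In wild-type cells it had a lowest of 768.7, a median of 1079 and a highest of 1139.0 at day 0, lay between 1032.9 and 1113.5 at day 2 and between 550.2 and 910.0 at day 6, and read 446.5 and 504.7 at day 8. Its change was called at day 8 only (-1.07 ± 0.16, adjusted p = 5.7e-07). With the replicate block, though replicate numbers were not taken as pairs there, it was -0.84 and not called. It was also under 2-fold without wild-type replicate 1 of day 8 (-0.98), with day 0 replicates 1 to 3 alone (-0.94), with a pseudocount 4 times higher (-0.94) and with probe sets averaged (-0.58). Ezh2-null cells at day 8 read 844.0 and 858.8, above wild type without overlap, a difference of 0.80 ± 0.20 (adjusted p = 0.015) under 2-fold. In Eed-null cells Spry2 read 547.7 and 638.6 at day 6, against 1199.7 to 1397.2 at day 0 (-1.10 ± 0.17, adjusted p = 1.3e-06). That call was lost without Eed-null day 6 replicate 2 (-1.0), with a pseudocount 4 times higher (-0.99) and with probe sets averaged (-0.56). Both averages include a second Spry2 probe set with a mean of 42.7, above the array median in 3 of 53 arrays.

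**Figure D5:**
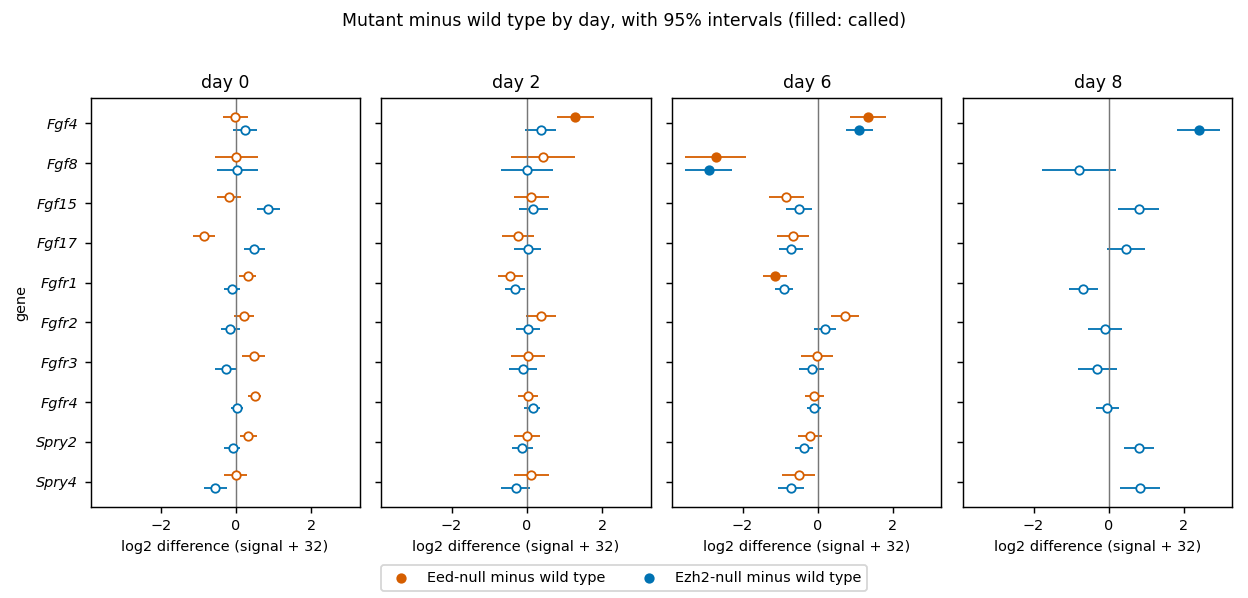
Log2 difference of Ezh2-null and Eed-null cells from wild-type cells at each day on the log2(signal + 32) scale (bars: 95% intervals; filled symbols: called). Fgf4 lies above 0 in both mutants at day 6 and in Ezh2-null cells at day 8, and Fgf8 lies below 0 in both at day 6.

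The other genes of the pathway were taken from a list of 57, of which 49 had a probe set and 40 passed the filter. In wild-type cells at day 2 against day 0, 4 were higher and 1 lower (5 of 40, beside 3.43% of all genes). At day 6 there were 9 and 3 (12 of 40, beside 10.3%), and at day 8 there were 7 and 3 (10 of 40, beside 11.4%). The 6 of smallest p at day 6 were Flrt3, Gab1, Sdc1, Fgf3, Dusp4 and Fgf13. Gab1, a docking protein that relays receptor signals, fell by 1.55 ± 0.13, and the other 5 rose. Ezh2-null cells differed from wild type at day 6 in 2 higher and 4 lower genes (6 of 40, beside 3.03%), and Eed-null cells in 3 higher and 3 lower (6 of 40, beside 3.1%). At day 0 neither mutant gave a call among the 40 (limma), as for Ezh2-null cells at day 2. The median change of the 40 genes was between -0.06 and 0.14 in the 7 comparisons of a mutant with wild type, beside -0.01 to 0.04 for all genes.

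At day 6 the lower genes of this list in Ezh2-null cells were Dusp4, Il17rd, Fgf5 and Fgf3, and those in Eed-null cells were the first 3 of these. Dusp4, a phosphatase induced by ERK that switches it off, averaged 517 ± 266 in Ezh2-null and 188 ± 23.6 in Eed-null cells, against 1583 ± 709.9 in wild-type cells (SD, n = 5, 2 and 5). The differences were -1.59 and -2.74, though the Ezh2-null range overlaps wild type. Il17rd (Sef), an inhibitor of FGF signalling at the membrane, had differences of -1.07 and -1.28. Fgf3, the ligand gene next to Fgf4, averaged 29.2 ± 8.69 in Ezh2-null against 97.7 ± 22.3 in wild-type cells, a difference of -1.08 ± 0.12 (adjusted p = 4.3e-09), so these neighbours went opposite ways. Fgf5, a ligand of the epiblast, averaged 71.5 ± 27.0 in Ezh2-null and 37.0 ± 3.68 in Eed-null cells, against 354 ± 216 in wild type. The higher genes were Gpc4 and Flrt3 in both mutants and Hs6st1, a heparan sulfate sulfotransferase, in Eed-null cells. Gpc4, a heparan sulfate proteoglycan, averaged 3291 ± 684 in Ezh2-null and 2206 ± 94.3 in Eed-null cells, against 1043 ± 231 in wild type. Flrt3, a membrane protein that binds FGF receptors, averaged 1074 ± 259 and 1028 ± 95.2, against 427 ± 73.7 in wild type. At day 8 the call was Etv5, an ETS factor induced by FGF signalling, at 2484 ± 37.1 in Ezh2-null against 829.5 ± 66.8 in wild-type cells (1.55 ± 0.35, adjusted p = 0.0067).

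In neuronal stem cells against Sox1-GFP cells 7 of the 40 were higher and 7 lower (14 of 40, beside 14.3% of all genes). Of the 6 with the smallest p, Fgfrl1, a receptor-like protein without a kinase domain, was higher by 1.69 ± 0.12, the feedback inhibitor Spry1 by 1.92 ± 0.15, the ligand Fgf1 by 1.87 ± 0.15 and the ERK phosphatase Dusp6 by 2.79 ± 0.26. Fgf13, an intracellular FGF-like protein, and Hs6st1 were lower, with differences of -2.74 ± 0.27 and -1.94 ± 0.19. Among 11 tested targets and feedback genes 5 were higher and 1 lower. The lower one, the phosphatase gene Dusp5 (-1.49 ± 0.48, adjusted p = 0.011), is named after its value was seen. The ligands Fgf15, Fgf4 and Fgf8 were lower in the same comparison, with differences of -3.04, -1.14 and -1.18. The Fgf4 call was lost with a pseudocount 4 times higher (-0.59) and with probe sets averaged (-0.61). The Fgf8 call was lost with the replicate block (adjusted p = 0.15), without either neuronal stem cell array (adjusted p = 0.12 and 0.14) without Sox1-GFP replicate 3 (-0.92), with a random block for the line (adjusted p = 0.095) and with a pseudocount 4 times higher (-0.47). Replicate numbers were not taken as pairs between neuronal stem cells and Sox1-GFP cells, so the replicate block rests on no known pairing. In MEF against wild-type ES cells 6 were higher and 5 lower (11 of 40, beside 24.1% of all genes). Of the 6 with the smallest p, Fgf7, a ligand of mesenchymal cells, the proteoglycan gene Sdc1 and Ptpn11 were higher, and Gab1, Etv5 and Etv4 were lower, with Fgf7 at 5.39 ± 0.23 and Etv5 at -3.73 ± 0.28. T-GFP cells differed from wild-type ES cells in 7 higher and 2 lower genes (9 of 40, beside 9.5%). Of the 6 with the smallest p, Dusp4, Il17rd, Dusp6 and Fgf5 were higher there, and Gab1 and Hs6st1 lower, with Dusp4 at 3.77 ± 0.50 and Gab1 at -1.94 ± 0.18.

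Genes whose group means followed a member most closely over the 15 groups were found among 2810 genes with a span of at least 2 on the log2 scale. For Fgf4 they were Gtsf1l, Lncenc1 and Nr0b1, each with a correlation of 0.98, and for Fgf8 Vrtn (0.97), Eomes (0.93) and Oasl2 (0.90). For Fgf15 they were Ppp1r1a (0.91), Slc6a15 (0.89) and Bend3 (0.88), and for Fgf17 Zscan10 (0.88), Slc27a2 (0.88) and Utp14a (0.87). Fgfr3 was followed by Tox3 (0.92), Scube2 (0.92) and Rnd2 (0.89). For Spry2 the nearest were Pald1 (0.92), Acot1 (0.89) and Pou3f1 (0.89), and for Spry4 A2m, Plekhg1 and Ttpa at 0.86 to 0.87. Spry2 and Spry4 correlated with each other at 0.75, and Fgf4 and Fgf8 at -0.18. The points share arrays and the group order of differentiation, so these values are a description.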

How the data were processed

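Biotin-labelled cRNA from total RNA was measured on Affymetrix arrays, per the labels' protocols. The deposited values are linear intensity, and the method by which the authors summarised and scaled them was not given in the sources used here. They lay between 0.4 and 33985.898, and array medians ranged over 0.2035 on the log2(value + 32) scale, so no further normalisation was applied.

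Of 45037 probe sets on the array, those with a single symbol in GEO's platform annotation (34945) were used. The brightest probe set stood for its gene, and sample titles gave the groups. A group-means model over all 53 arrays was fitted to log2(value + 32) with limma 3.58.1 (R 4.3.3), leaving 38 residual degrees of freedom beside 4.6 of the prior. P-values of each of 19 comparisons were adjusted by Benjamini-Hochberg over the tested genes. Intervals are 95%. In simulated data with 50 genes changed at each size among 13807, the fewest recovered in any comparison were 46 at 3-fold and 49 at 4-, 8- and 16-fold. The simulated noise was independent between arrays, without array sets, lines or pairs, so these counts do not measure recovery in the real data.

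The 10 members, the list of other pathway genes, the marker lists and the comparisons were chosen with earlier results of these data known. The text names all members, for comparisons in which it names other pathway genes, the called ones, at most the 6 of smallest p (Dusp5 is an exception), and the 3 genes most correlated with each member whose group means span at least 2.

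Array sets were read from the leading component of the differences within 3915 probe set pairs that share a gene. It held 61.9% of the variance at days 2 and 6 and, taken separately, 40.2% at day 0. The pairing of replicate numbers was checked by correlating deviations from the group means. Between Ezh2-null and wild-type arrays of equal number, these correlations were 0.57 to 0.70 at day 2 (4 pairs) and 0.38 to 0.72 at day 6 (5 pairs), and only these numbers were taken as pairs. The labels state no pairing, and numbers and array sets coincide, so the 2 cannot be told apart.

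Alternatives were a pseudocount 4 times lower or higher, quantile or median scaling, other filters, the mean of all probe sets, other limma settings, cell line, replicate number or array set as a block, each array set, wild-type line or part of the day 0 arrays alone, no minimum fold, and leaving out single arrays. Wild-type replicates 1 to 3 alone at day 0 were added after seeing the data.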

Additional observations from a re-analysis of the deposited data

Results flagged for a closer look

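Each gene was examined in each group of 4 to 10 arrays, which made 70 combinations that share arrays. Single arrays stood far from the rest in 4 of them, and chance alone marks about 1 in 20. In Ezh2-null cells at day 0, Fgf15 read 355.8 in replicate 3 (the next was 251.3), Fgfr2 read 187.0 in replicate 1 and Fgfr4 read 122.6 in replicate 6. In wild-type cells at day 0, Spry2 read 768.7 in replicate 2.

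The change from day 0 to day 6 differed between genotypes by limma's interaction term in 6 cases, all relative to the same wild-type arrays. For Ezh2-null minus wild type the difference of changes was -2.94 for Fgf8 (adjusted p = 2.8e-06), -1.35 for Fgf15 and -1.20 for Fgf17 (-0.75 to -0.99, under 2-fold, under 4 alternatives), beside 3.09% of all genes called. For Eed-null minus wild type it was 1.34 for Fgf4 (adjusted p = 0.0011; 0.83 and 0.77, under 2-fold, with a pseudocount 4 times higher and with probe sets averaged), -2.72 for Fgf8 (adjusted p = 0.00017) and -1.44 for Fgfr1, beside 4.69%. Fgf4 differed in the same direction in Ezh2-null cells but under 2-fold (0.86, adjusted p = 0.011).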

How the results depend on the processing

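Of 61 called differences of a member, 38 stayed called under every alternative run, and of 129 not called, 83 stayed so. The 1 result counted as reversed was Fgf8 in Ezh2-null against wild-type cells at day 2, whose main difference had no direction of its own. It was 1.27 in the first array set alone and -1.27 in the second alone. The number of the 10 genes called moved as follows. With no minimum fold it was 6 in wild-type cells at day 2, 9 at day 6, 1 in Ezh2-null and 5 in Eed-null cells at day 0, 7 and 6 at day 6, and 3 in Ezh2-null cells at day 8, each against wild type. It was 8 and 7 in the courses of Ezh2-null and Eed-null cells and 5 in the Ezh2-null interaction. With a pseudocount 4 times higher it was 2 in wild-type cells at day 8, 1 in each mutant at day 6, 2 in the Eed-null course, 1 in the Ezh2-null interaction and 2 in neuronal stem cells against Sox1-GFP cells. With the mean of all probe sets it was 3 in wild-type cells at day 8, 1 in each mutant at day 6 and 2 in the Eed-null course. Wild-type replicates 1 to 3 alone at day 0 gave 5 in wild-type cells at day 2 and 1 in Ezh2-null cells at day 0. J1 arrays alone also gave 1 in Ezh2-null cells at day 0. Wild-type replicates 4 to 7 alone gave 1 in Eed-null cells at day 0. Each array set alone gave 1 in Ezh2-null cells at day 2, and CJ7 alone gave 4 at day 6. Leaving out each array in turn gave 0 to 1 in Eed-null cells at day 2 (0 without Eed-null replicate 2), 1 to 2 in Ezh2-null cells at day 6 (1 without Ezh2-null replicate 1) and 2 to 4 in the Eed-null course (2 without Eed-null day 6 replicate 2). With replicate number as a block the count was 5 in wild-type cells at day 2 against day 0, where the numbers were not read as pairs. It was 0 and 2 in Ezh2-null against wild-type cells at days 2 and 6, where the numbers were read as pairs. The block changed 8 of 190 calls. The causes were not tested. Signals below the lowest array median (50.5) limit Fgf8 at day 0 and in both mutants at day 6. They also limit Fgf4 in MEF and neuronal stem cells and Fgf15 in neuronal stem cells. The same holds for Fgf17 in Sox1-GFP cells, neuronal stem cells and MEF. Changes on the log2(value + 32) scale understate ratios there.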
